A study of Saccharomyces cerevisiae with 3 samples.

Results

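The last stretch of the yeast 25S ribosomal RNA, from the nucleotide after 2990 to the 3′ end, was examined nucleotide by nucleotide in PAR-CRAC libraries of Get4-HTP and wild type cells. It covers roughly domain VI, and its members were chosen by position in the RDN25-2 gene, not by signal. The stretch holds 120 of the 856 T positions and 12.2% of the 3332 nucleotides that served as the 25S total. The nucleotides between 1390 and 1455, which carry the strongest signal of 25S in both Get4-HTP libraries, were left out of that total. RefSeq annotates RDN25-2 (YNCL0021C) as an rRNA gene, with a copy of the same length at RDN25-1 (YNCL0012C). How reads were divided between near-identical rDNA copies is not stated in the sources used here. The files name no genome build, so positions are given only along 25S.

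In CRAC a tagged protein is crosslinked to RNA within the cell, and the RNA purified with it is sequenced. All 3 libraries came from the haploid laboratory strain BY4741. Cells were in exponential growth with 4-thiouracil, a uridine analog that crosslinks to protein under light of 365 nm and is then often read as C. The wild type library (1 library, 35 PCR cycles) came from cells in which no protein carried a tag. The 2 Get4-HTP libraries (24 PCR cycles each) came from cells in which Get4 was followed, at its own genomic locus, by a C-terminal His-TEV-protein A tag. Get4 is a subunit of the Get4/5 complex, which takes part in the delivery of tail-anchored membrane proteins. A code in the file headers is the same for wild type and Get4-HTP 1 and a different one for Get4-HTP 2. The meaning of this code is not stated, and neither its part nor that of the PCR cycles in any result below was tested.

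Domain VI is the most 3′ of the secondary structure domains of the large subunit rRNA. It contains the sarcin-ricin loop, a strongly conserved loop at which the translational GTPases are bound and activated, and in which ricin removes 1 adenine. It also contains ES39, an expansion segment that eukaryotic ribosomes have and bacterial ribosomes lack.

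Sequences of the positions discussed are shown first, as given in the deposited files with T for U, 5′ to 3′ along the rRNA. In the first, the capitals mark the conserved sarcin-ricin motif ACGAGAGGA. In the second, which is the highest peak of the domain in wild type, they mark the 4 T with most substitutions in wild type and Get4-HTP 1. In the third they mark the T with the highest substituted share in wild type and Get4-HTP 1. The fourth is named only because it holds the domain's highest nucleotide in Get4-HTP 2, at 3316. It is part of a longer run, and its share of 25S hits in Get4-HTP 2 was near that of wild type and below that of Get4-HTP 1. In it the capitals mark 3 of the 5 T with most substitutions in Get4-HTP 2. In the last they mark another of these 5, nucleotide 3389, and the final T of 25S.
Sarcin-ricin loop, nucleotides 3015 to 3041: gaacttagtACGAGAGGAacagttcat
Wild type peak, nucleotides 3172 to 3215: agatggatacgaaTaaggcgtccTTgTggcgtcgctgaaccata
Surroundings of nucleotide 3269, nucleotides 3259 to 3279: tgctggcgaaTtgcaatgtca
Get4-HTP 2 peak, nucleotides 3281 to 3338: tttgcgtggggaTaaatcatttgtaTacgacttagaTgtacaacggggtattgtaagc
3′ end, from nucleotide 3368: tgagattaagcctttgttgtcTgatttgT

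The domain held more reads than any other division of 25S in wild type and Get4-HTP 1, but not in Get4-HTP 2. A hit is a read that covers a nucleotide, and each kept read carried 1 T-C substitution, so substitutions count reads once. Wild type had 67746 hits and 2249 substitutions in the domain, Get4-HTP 1 had 187551 and 6160, and Get4-HTP 2 had 23811 and 779. The mean number of hits per nucleotide was 167 in wild type, against 462 for Get4-HTP 1 and 58.6 for Get4-HTP 2. Among 6 divisions of 25S the domain ranked 1st, 1st and 3rd by this mean.

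The 2 Get4-HTP libraries lay on opposite sides of wild type. The share of 25S hits in the domain was 27.1% for wild type, against 43.1% for Get4-HTP 1 and 9.12% for Get4-HTP 2, where even coverage would give 12.2%. Get4-HTP 1 was therefore 1.59 times wild type and Get4-HTP 2 was 0.336 times wild type. The mean of the Get4-HTP libraries was 26.1% ± 24.1 (SD, n = 2), a spread nearly as large as the mean, so no difference between strains held up. With 1 wild type library no test between strains was possible. In Get4-HTP 2 the division ending at nucleotide 1390, next to the left-out stretch, took 43.6% of 25S hits (18.5% in wild type and 14.1% in Get4-HTP 1).

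Substitutions gave the same order. Wild type had 27.7% of them in the domain (Wilson 95% interval 26.8 to 28.7), Get4-HTP 1 had 44.6% (43.7 to 45.4) and Get4-HTP 2 had 10.4% (9.70 to 11.1). These intervals do not overlap, but they cover counting error only and not the spread between cultures. The domain is somewhat rich in T, with 29.6% T against 25.2% in the rest of 25S. Set against the even share per T position, its substitutions stood at 1.98 for wild type, against 3.18 for Get4-HTP 1 and 0.739 for Get4-HTP 2.

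**Figure D1:**
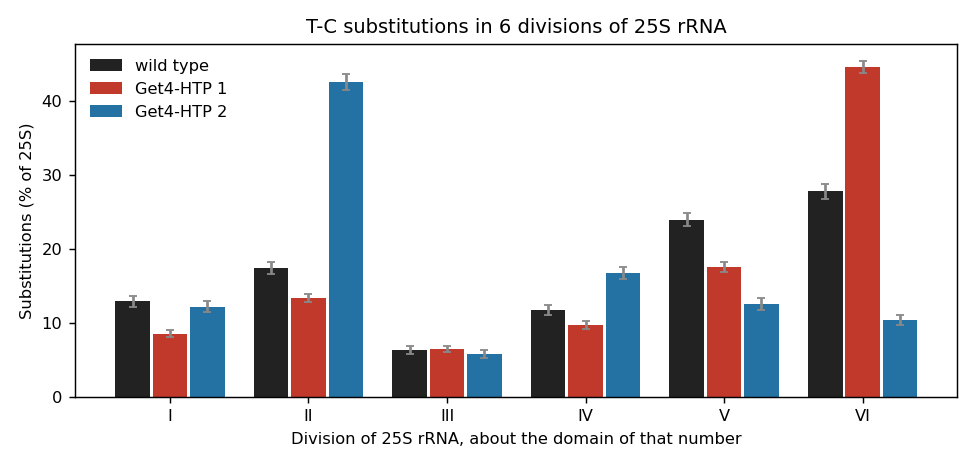
T-C substitutions as percent of the 25S total (vertical axis) in 6 divisions of 25S, each about the domain of that number, in wild type, Get4-HTP 1 and Get4-HTP 2, with Wilson 95% intervals for counting error as error bars. The domain described here is the last, at 27.7%, 44.6% and 10.4%, and the tallest bar of Get4-HTP 2 is that of the division next to the left-out stretch, at 42.5%.

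Relative to all mapped reads, both Get4-HTP libraries were below wild type. Per 1000000 mapped reads, wild type had 629265 hits in the domain, Get4-HTP 1 had 304965 and Get4-HTP 2 had 25495. A read covers about 30 nucleotides, so hits exceed reads. The substitutions per 1000000 mapped reads, which count reads, were 20890, 10016 and 834. On this scale Get4-HTP 1 was 0.485 times wild type in hits, the opposite direction from its share of 25S. Wild type had the fewest mapped reads, 107659 against 614992 and 933943.

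Most of the domain's signal in wild type and Get4-HTP 1 came from 1 sharp peak, which was nearly absent from Get4-HTP 2. In wild type hits exceeded 20% of the domain's maximum in 1 run only, nucleotides 3172 to 3215 (44 nucleotides). Its top at nucleotide 3188, with 1220 hits, was also the highest of all 25S in that library. In Get4-HTP 1 the run extended from 3170 to 3220 (51 nucleotides) and had its top at the same nucleotide, with 3395 hits. Get4-HTP 2 had 69 hits at nucleotide 3188.

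**Figure D2:**
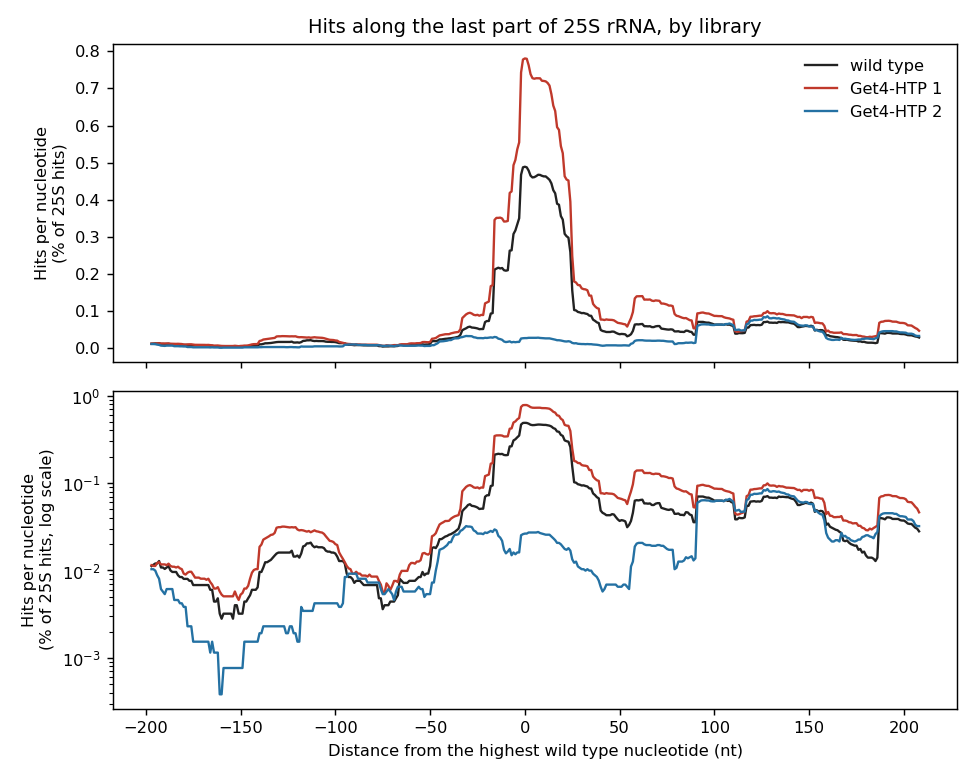
Hits at each nucleotide of the domain as percent of 25S hits, on a linear axis (upper panel) and a log axis (lower panel), against the distance in nucleotides from nucleotide 3188, in wild type, Get4-HTP 1 and Get4-HTP 2. Wild type and Get4-HTP 1 have 1 peak of the same outline, where Get4-HTP 2 stays low. Near the right end, in the 3′ part, Get4-HTP 2 comes close to wild type and Get4-HTP 1 stays above wild type.

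Within nucleotides 3172 to 3215 wild type had 252 to 1220 hits (median 880.5), Get4-HTP 1 had 767 to 3395 (median 2389) and Get4-HTP 2 had 32 to 77 (median 59.5). The run thus stood far above the domain's median of 89.5 and 240.5 hits in wild type and Get4-HTP 1, and only a little above the median of 42.5 in Get4-HTP 2. It held 56.4% of the domain's hits in wild type and 55.9% in Get4-HTP 1, but 10.5% in Get4-HTP 2. Its share of 25S substitutions was 16.4% for wild type (95% interval 15.6 to 17.2), against 26.4% for Get4-HTP 1 (25.7 to 27.2) and 0.958% for Get4-HTP 2 (0.762 to 1.20). In hits the run was 1.57 times wild type in Get4-HTP 1 and 0.0625 times wild type in Get4-HTP 2. On this scale Get4-HTP 1 exceeded Get4-HTP 2 by 25.2-fold, a distance that follows from their lying on opposite sides of wild type. Relative to all mapped reads, Get4-HTP 1 was 0.480 times and Get4-HTP 2 was 0.00753 times wild type. The rest of 25S was at 0.238 and 0.150 times. On that scale Get4-HTP 1 exceeded Get4-HTP 2 by 63.7-fold and wild type exceeded Get4-HTP 2 by 133-fold, so Get4-HTP 2 was further from wild type than from Get4-HTP 1.

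The edges of the peak fell at the same nucleotides in wild type and Get4-HTP 1. Both had their 2 largest rises at nucleotides 3172 and 3186. Hits went from 234 to 527 and from 873 to 1166 in wild type, and from 736 to 1501 and from 2411 to 3230 in Get4-HTP 1. The largest fall was at nucleotide 3213 in both, from 645 to 387 and from 1715 to 1078. In Get4-HTP 2, with far fewer hits here, they went from 72 to 77 at 3172, from 42 to 66 at 3186 and from 44 to 35 at 3213. The rise at 3186 and the fall at 3213 were thus also seen in Get4-HTP 2. In proportion to the hits before it, its rise at 3186 was no smaller than in the other libraries.

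Without this run, the domain still differed between the libraries in the same order. The remaining 362 nucleotides held 11.8% of 25S hits for wild type, against 19.0% for Get4-HTP 1 and 8.16% for Get4-HTP 2. Get4-HTP 2 was then 0.690 times wild type, compared with 0.336 with the run. Get4-HTP 1 stayed at 1.61 times wild type. With the run also removed from the total, the remaining nucleotides took 13.97%, 25.1% and 8.24%, where even coverage would give 11.01%.

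The domain was next divided into 14 windows of 29 nucleotides, about the length of 1 read, and each window's share of 25S hits was compared with wild type. No window was at least 2-fold lower in both Get4-HTP libraries and none was at least 2-fold higher in both. Over the 113 windows of 25S, 4.42% were lower in both and 4.42% were higher in both. The most frequent pattern was an opposed one, with 11 of 14 windows above wild type in Get4-HTP 1 and below it in Get4-HTP 2, against 15.9% of the windows of 25S. Neighboring windows share reads and are not independent.

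In Get4-HTP 1 all 14 windows were above wild type, with ratios of 1.12 to 2.003 (median 1.53, against 1.03 over 25S). Of these 1 reached 2-fold, the window from 3252 to 3280, against 6.19% of windows over 25S. The higher share was thus spread over the whole domain and not limited to the peak. In Get4-HTP 2 the ratios ranged from 0.0636 to 1.19 (median 0.523, against 0.945 over 25S), and 6 of 14 windows were at least 2-fold lower, against 14.2% over 25S. The lowest ratio of all 113 windows was that of the window from 3194 to 3222, at 0.0636, and its neighbor from 3165 to 3193 had 0.0874. Per 1000000 mapped reads, 10 of 14 windows were at least 2-fold lower in both Get4-HTP libraries. Over 25S this held for 85.8% of windows, so it was not particular to the domain.

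**Figure D3:**
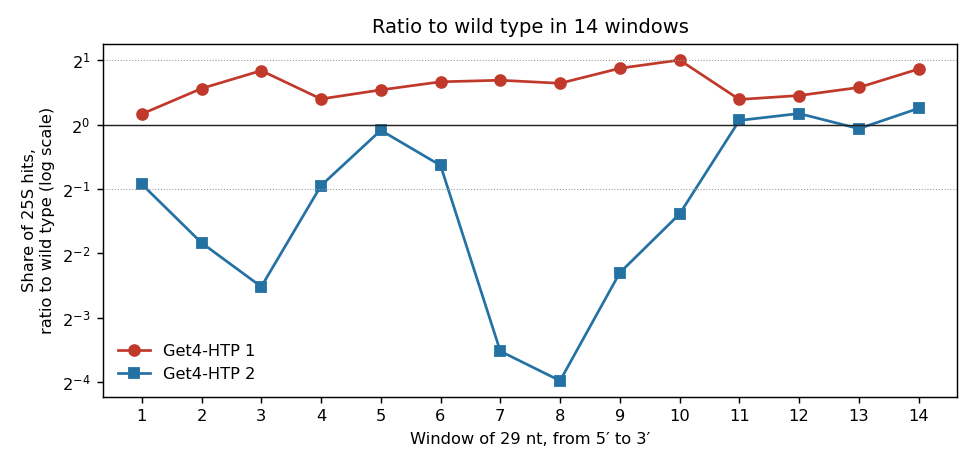
Ratio to wild type of the share of 25S hits (log axis) in the 14 windows of the domain, for Get4-HTP 1 and Get4-HTP 2. Get4-HTP 1 lies between 1.12 and 2.003 throughout, and Get4-HTP 2 falls to 0.0636 at the peak and lies between 0.957 and 1.19 in the last 4 windows.

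The last 4 windows lay near wild type in Get4-HTP 2 and the first 10 were mostly below it, a division made after the ratios had been seen. Among the first 10 the ratios of Get4-HTP 2 ranged from 0.0636 at the peak to 0.941 in the window from 3107 to 3135, about the same as the 0.957 of the window from 3339 to 3367 near the 3′ end. The first 10 windows, up to nucleotide 3280, held 21.8% of 25S hits for wild type, against 35.3% for Get4-HTP 1 and 3.28% for Get4-HTP 2. The last 4 windows held 5.38%, 7.80% and 5.84%. Get4-HTP 2 was thus 0.151 times wild type in the first 10 windows (the 5′ part), which include the peak, and 1.08 times in the last 4 (the 3′ part), whereas Get4-HTP 1 was 1.62 times and 1.45 times wild type. The last 4 windows made up 19.8% of the domain's hits for wild type, against 18.1% for Get4-HTP 1 and 64.0% for Get4-HTP 2. Per 1000000 mapped reads Get4-HTP 2 was lower in both parts, at 0.0182 and 0.131 times wild type.

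Across the 14 windows the log2 shares of wild type and Get4-HTP 1 ran almost in parallel (Pearson r = 0.993, Spearman rho = 0.947). For wild type and Get4-HTP 2 the values were 0.677 and 0.670, and for the Get4-HTP libraries they were 0.655 and 0.582. In the other 99 windows of 25S, r was 0.847, 0.684 and 0.800 and rho was 0.799, 0.631 and 0.806 for the same pairs. There the Get4-HTP libraries were closer to each other than Get4-HTP 2 was to wild type by both measures. Whether they were also closer than wild type and Get4-HTP 1 depended on the measure. Windows share base composition and reads, and these correlations are descriptions over windows, not over independent samples.

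In Get4-HTP 2 the highest nucleotide of the domain was 3316, with 223 hits. It lay in a run from 3279 to the 3′ end (118 nucleotides), and shorter runs above 20% of the maximum lay at 3143 to 3177, 3180, 3186 to 3211 and 3246 to 3266. The run began with a sharp edge, as hits rose from 36 to 155 at nucleotide 3279. The same nucleotide had a rise in the other libraries, from 89 to 175 in wild type and from 228 to 405 in Get4-HTP 1. This edge was thus present in all 3 libraries, although it was the largest rise only in Get4-HTP 2.

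By the mean of both Get4-HTP ratios, the 3 highest windows were the last one (1.505) and those from 3310 to 3338 (1.25) and from 3339 to 3367 (1.22). The 3 lowest were those from 3194 to 3222 (0.812), from the start of the domain to 3019 (0.824) and from 3165 to 3193 (0.849). Of these 6 windows, the last (1.82 and 1.19) and that from 3310 to 3338 (1.37 and 1.13) were above wild type in both Get4-HTP libraries. The means of the other 4 average values on opposite sides of wild type.

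Substituted T positions were compared next, since a T-C substitution marks the crosslinked base. Substituted shares are shares of the kept reads, not frequencies of crosslinking. As each kept read carried 1 substitution, a read substituted at 1 T counts as unsubstituted at every other T it covers. A high share at 1 T thus goes with lower shares at its neighbors. The same 5 T positions had most substitutions in wild type and Get4-HTP 1, in the same order. Nucleotide 3198 led with 486 substitutions in wild type and 1252 in Get4-HTP 1, and had 10 in Get4-HTP 2. It was followed by 3185 (251 and 760), 3195 (228 and 661), 3196 (177 and 515) and 3269 (60 and 178). The first 4 lie within the peak and are the capitals in its sequence. In Get4-HTP 2 the 5 leading positions were 3293 (106 substitutions), 3317 (101), 3389 (46), 3306 (25) and 3155 (24), of which none is in the peak. The 5 leading positions held 53.4% of the domain's substitutions for wild type, against 54.6% for Get4-HTP 1 and 38.8% for Get4-HTP 2.

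**Figure D4:**
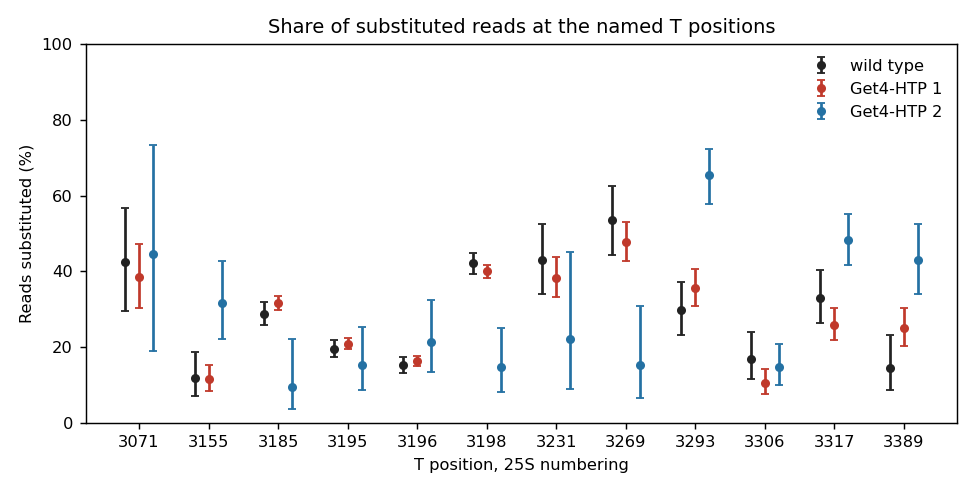
Reads substituted (percent, points) at 12 leading T positions of the domain in wild type, Get4-HTP 1 and Get4-HTP 2, with Wilson 95% intervals for counting error as error bars. Nucleotide 3198 is at 42.1% and 40.0% in wild type and Get4-HTP 1 and at 14.7% in Get4-HTP 2, and nucleotide 3293 is at 29.7%, 35.6% and 65.4%.

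Relative to the reads covering it, nucleotide 3198 was substituted in 42.1% for wild type (486 of 1155 reads, 95% interval 39.3 to 44.9), against 40.0% for Get4-HTP 1 (1252 of 3131, 38.3 to 41.7) and 14.7% for Get4-HTP 2 (10 of 68, 8.2 to 24.997). Nucleotide 3185 had 28.8%, 31.5% and 9.5% (4 of 42 reads in Get4-HTP 2). At both positions wild type and Get4-HTP 1 overlap and Get4-HTP 2 lies below them. Both were picked for their many substitutions in wild type and Get4-HTP 1, which favors this order. At nucleotides 3195 and 3196 the shares were 19.6%, 20.9% and 15.3%, and 15.2%, 16.3% and 21.43%, with overlapping intervals in all 3 libraries. The reverse was found at nucleotide 3207, also in the peak, which was substituted in 5.6% of reads for wild type, against 4.7% for Get4-HTP 1 and 30.8% for Get4-HTP 2 (16 of 52 reads, 19.9 to 44.3). Not every T in the peak was substituted often, as nucleotide 3203 had substitutions in only 6 of 1062 wild type reads, 4 of 2842 Get4-HTP 1 reads and 2 of 61 Get4-HTP 2 reads.

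The highest substituted share among T with at least 100 hits was at nucleotide 3269 in wild type (53.6%, 44.4 to 62.5) and in Get4-HTP 1 (47.8%, 42.8 to 52.9). Get4-HTP 2 had 5 of 33 reads there (15.2%, 6.7 to 30.9). In wild type nucleotides 3231 (43.0%) and 3198 followed, and in Get4-HTP 1 nucleotides 3198 and 3071 (38.4%). At nucleotide 3071 wild type had 42.6% and Get4-HTP 2 had 44.4%, but the latter rests on 9 reads. At nucleotide 3231 Get4-HTP 1 had 38.3% and Get4-HTP 2 had 22.2%, the latter from 18 reads.

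In Get4-HTP 2 every T with at least 100 hits lay at nucleotide 3280 or beyond, so that the highest shares at this depth could only come from the 3′ part. With fewer reads, nucleotide 3100 in the 5′ part had 47.6% (10 of 21 reads). Nucleotide 3293 had 65.4% (106 of 162 reads, 57.8 to 72.3) against 29.7% in wild type (23.0 to 37.3) and 35.6% in Get4-HTP 1 (30.8 to 40.6). Nucleotide 3317 had 48.3% (41.6 to 55.1) against 32.9% (26.3 to 40.3) and 25.9% (21.9 to 30.4). Nucleotide 3389, close to the 3′ end, had 43.0% (34.0 to 52.5) against 14.4% (13 of 90 reads, 8.6 to 23.2) in wild type and 71 of 284 reads (20.3 to 30.3) in Get4-HTP 1. At these 3 positions the interval of Get4-HTP 2 lay above both others, although coverage of the 3′ part relative to 25S was close to wild type. They were picked as the highest shares of Get4-HTP 2, which favors this order in advance, so it does not describe T positions in general. Nucleotide 3306, between the first 2 of them, did not show this, with 16.8% for wild type, against 10.4% for Get4-HTP 1 and 14.6% for Get4-HTP 2. At nucleotide 3155, upstream of the peak, the shares were 11.8%, 11.4% and 31.6%.

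Intervals could be compared at 77 T positions of the domain with at least 20 hits in every library. Wild type and Get4-HTP 1 did not overlap at 3 of them (3281, 3313 and 3341), against 5.79% of 553 such positions over 25S. Wild type and Get4-HTP 2 did not overlap at 17, of which 9 were higher in wild type and 8 in Get4-HTP 2, against 11.2% over 25S. The Get4-HTP libraries did not overlap at 17 either, 7 of them higher in Get4-HTP 1 and 10 in Get4-HTP 2, against 11.6% over 25S. The domain's share of such positions was thus 3.90% for the first pair, near that of 25S. It was 22.1% for each of the others, above that of 25S, without a preferred direction. Whether intervals overlap also depends on depth, for which the domain and 25S were not matched. At least 100 hits were reached by 50, 90 and 29 of the domain's 120 T in wild type, Get4-HTP 1 and Get4-HTP 2. In the rest of 25S 99, 166 and 123 of 736 T reached them. The higher share of separated intervals therefore does not show that substituted shares differed more in the domain. Neighboring T share reads, so these positions are not independent.

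Over T positions with at least 100 hits the median substituted share was 9.09% for wild type (50 positions), against 7.84% for Get4-HTP 1 (90) and 2.51% for Get4-HTP 2 (29). In the rest of 25S it was 5.43%, 6.67% and 4.51%. No T in the peak reached 100 hits in Get4-HTP 2, so the positions behind these medians differ between libraries. With at least 20 hits the median of Get4-HTP 2 was 5.41%. No substitution was found at 14 of 120 T for wild type, against 6 for Get4-HTP 1 and 31 for Get4-HTP 2. These numbers go with the depth of the domain in each library.

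The sarcin-ricin loop had few reads in all 3 libraries. Its motif, searched as ACGAGAGGA on both strands, occurred once in the 8 rDNA segments, at nucleotides 3024 to 3032, and its reverse complement did not occur. The adenine removed by ricin, nucleotide 3027, was covered by 8 wild type reads, 25 Get4-HTP 1 reads and 1 Get4-HTP 2 read. Over the motif hits ranged from 7 to 12, from 22 to 28 and from 1 to 3. In the rest of 25S the median was 36, 53 and 36 hits per nucleotide. The lowest values there were 2, 2 and 0, so nucleotides with fewer hits than the motif occurred elsewhere in each library. The lowest value of the whole domain in Get4-HTP 2, 1 hit, was at nucleotides 3027 and 3028 of the motif. In wild type the lowest value, 7, was at nucleotide 3028 and again at 3034, just after the motif. In Get4-HTP 1 the lowest value, 20, was at nucleotide 3037, a little further on.

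The motif holds no T, so that no substitution can fall within it, and its neighbors are the only positions that can report a crosslink. The T before it, nucleotide 3023, had no substitution in 15, 30 and 4 reads. The Wilson 95% intervals of these shares reach up to 20.4%, 11.4% and 49.0%, so a low share was not detectable at this depth. The next T after it, nucleotide 3037, was substituted in 0 of 8 wild type reads, 3 of 20 Get4-HTP 1 reads and 0 of 2 Get4-HTP 2 reads. The window that holds the loop, ending at nucleotide 3048, had 336, 881 and 85 hits, the fewest of the 14 windows in each library.

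The 3′ end of 25S was read in all libraries. The last 29 nucleotides had 32 to 101 hits for wild type, against 125 to 318 for Get4-HTP 1 and 61 to 118 for Get4-HTP 2, with 92, 283 and 110 substitutions. At the last nucleotide, a T, there were still 70, 201 and 84 hits. Of these reads 15, 57 and 20 had the substitution at that T.

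Few reads continued into the 3′ external transcribed spacer (ETS2), which is removed during rRNA processing. The first nucleotide of the ETS2 segment is the last of 25S and had the same hits. The next nucleotide was covered by 2 wild type reads, 16 Get4-HTP 1 reads and 2 Get4-HTP 2 reads. This is 2.86% of the hits at the end of 25S for wild type (95% interval 0.787 to 9.83), against 7.96% for Get4-HTP 1 (4.96 to 12.5) and 2.38% for Get4-HTP 2 (0.655 to 8.27). The intervals overlap, and a difference in reads across the 3′ end was not detectable at this depth.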

How the data were processed

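PAR-CRAC libraries of wild type (1) and Get4-HTP (2) yeast were analyzed. As the study's methods state, the authors trimmed reads with Flexbar, discarded reads under 18 nucleotides, collapsed them by UMI, mapped them with at most 1 mismatch and kept those with 1 T-C mutation. The submitters' processing notes name Bowtie2 2.3.4.2, while the file headers point to Bowtie 1 output. RDN37 and mitochondrial features had been removed from the annotation. The deposited values are counts of hits and substitutions per nucleotide, which the authors made with pyPileup (pyCRAC) and did not normalize. The genome build is not given in the sources used here. Because of the T-C filter, reads at often substituted positions were retained more often.

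The domain was taken as RDN25-2 nucleotides 2991 to 3396 (406 nucleotides). Shares are of RDN25-2 without nucleotides 1391 to 1454. Divisions ended at 650, 1390, 1880, 2400, 2990 and 3396. Runs were nucleotides above 20% of the domain's maximum. A pseudocount of 1% of the mean window was added to window ratios. T positions were ranked with at least 100 hits. Named were the domain, its maxima and runs, the 3 highest and lowest windows, per library the 5 T with most substitutions and 3 with the highest share, the T next to the sarcin-ricin motif and the 3′ end. Nucleotides 3100, 3203, 3207, 3281, 3313 and 3341, the edges of the peak and the 5′ and 3′ parts were picked with their values known. The domain and these lists were chosen with earlier results of these data known.

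Wilson 95% intervals cover counting error only and assume that reads remaining after UMI collapse are independent. Wild type had 107659 mapped reads, Get4-HTP 1 had 614992 and Get4-HTP 2 had 933943. No test was run, because wild type has 1 library. Alternatives changed the denominator, limits, window width, pseudocount, filters and libraries. Python 3.11.15, numpy 2.4.6, scipy 1.17.1, pandas 2.3.3 and matplotlib 3.10.9 were used.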

Additional observations from a re-analysis of the deposited data

How the results depend on the processing

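Of 71 alternative values, 2 reversed for a single library, 6 moved and 63 stayed within the limit set for a move. For ratios of the domain this limit was the SD between the Get4-HTP libraries, 0.886 for hits, which is so wide that large changes remain within it. The reversed ones were Get4-HTP 1 over wild type, which was above 1 as a share of 25S and became 0.485 (hits) and 0.479 (substitutions) per 1000000 mapped reads. Without either Get4-HTP library the mean ratio of the domain, 0.963, ranged from 0.336 to 1.59 for hits, and that for substitutions, 0.990, from 0.374 to 1.61, so that the mean lay below 1 with Get4-HTP 2 alone and above 1 with Get4-HTP 1 alone. Per 1000000 mapped reads the mean fell to 0.263 for hits, with Get4-HTP 2 at 0.0405. Windows lower in both libraries numbered 0, but 10 per 1000000 mapped reads and 0 to 6 without 1 library. Windows higher in both numbered 0, and 0 to 1 without 1 library. Averaged over the Get4-HTP libraries, the run was 78 nucleotides long, 33 at a limit of 50% of the maximum and 51 to 118 without 1 library. With the strongest stretch of 25S kept in the total, the ratios of Get4-HTP 1 and Get4-HTP 2 were 1.18 and 0.120. Leaving out 50 further nucleotides on either side of it, an alternative chosen after seeing the data, gave 1.60 and 0.397. A total also without the wild type peak was likewise added after seeing the data and left both window counts at 0. Medians of the substituted share at T with at least 300 hits were not obtained for Get4-HTP 2, since no T of the domain reached that depth. No paired analysis was possible because wild type has 1 library and the result comes from no test. Depth limits the sarcin-ricin motif, with 1 to 3 hits in Get4-HTP 2.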

Other observations

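Substituted shares were grouped by the base before the T, among T of the domain with at least 100 hits. After A the median share was 16.0% in wild type (14 positions), 10.3% in Get4-HTP 1 (21) and 8.55% in Get4-HTP 2 (8). After C it was 3.92% (11), 4.73% (17) and 1.01% (3). After G it was 7.69% (12), 9.22% (21) and 6.20% (8), and after T it was 8.97% (13), 6.44% (31) and 1.45% (10). Positions after A and after C overlapped in their range in every library, from 4.49 to 53.6% and from 0 to 19.6% in wild type. The highest positions did not share a preceding base, as nucleotides 3269 and 3293 follow an A, 3231 and 3198 a G and 3389 a C.

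Another edge shared by all 3 libraries was at nucleotide 3375, near the 3′ end, where hits rose from 35 to 100 in wild type, from 142 to 294 in Get4-HTP 1 and from 72 to 108 in Get4-HTP 2. At nucleotide 3299 hits fell in each, from 148 to 96, from 330 to 194 and from 160 to 126.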
